A study of Mus musculus with 12 samples.

Results

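The response to the miR-200 clusters was compared between 28-2 and ID8 cells over all 12 libraries of the study. For every gene, the log2 fold change of 28-2-200f over 28-2EV was set against the log2 fold change of ID8-200f over ID8EV, and the difference of the responses (28-2 minus ID8) was tested as an interaction. Of 57010 genes in the files, 13620 had enough counts to be tested. ID8 and 28-2 are murine ovarian cancer lines, grown here as 2D cultures. The 28-2-200f and ID8-200f cells were infected with a lentivirus for the miR-200c/141 cluster (CMV promoter, mCherry, hygromycin resistance). They were also infected with a lentivirus for the miR-200b/200a/429 cluster (CMV promoter, GFP, puromycin resistance). The 28-2EV and ID8EV cells were infected with a control lentivirus carrying EGFP and puromycin resistance, with mCherry under an EF1A promoter. Each of the 4 groups had 3 libraries, which the study's methods call independent samples without stating whether they came from separate infections. If they did not, the spread between libraries holds no spread between infections. The 28-2-200f cells grew in puromycin at 60 µg/ml and hygromycin at 1000 µg/ml, against puromycin at 30 µg/ml for 28-2EV cells. The ID8-200f cells grew in puromycin at 40 µg/ml and hygromycin at 50 µg/ml, against puromycin at 30 µg/ml for ID8EV cells. The miR-200 clusters and the drug doses cannot be told apart in any comparison below. The hygromycin dose also differed between the 200f lines, so a line and its dose cannot be told apart in the difference of the responses. By the study's RT-PCR, every miR-200 microRNA rose significantly in 28-2-200f cells. In ID8-200f cells miR-200a, miR-200b and miR-200c did so, but miR-429 and miR-141 did not. The paper states that miR-429 and miR-141 were at considerably lower levels than the others in both lines. The part of an unequal gain in the difference of the responses was not tested.

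The miR-200 family holds 5 microRNAs that are made from 2 clusters and share 2 closely related seeds, the bases that pair with messenger RNAs. They are known for silencing Zeb1 and Zeb2, repressors of Cdh1 and other epithelial genes, and so for holding cells in an epithelial state. Zeb1 and Zeb2 in turn repress the miR-200 clusters. The 3p mature sequences show the seeds, bases 2 to 8, in capitals (RefSeq, GRCm38.p6).
miR-200a-3p: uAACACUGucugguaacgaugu
miR-141-3p: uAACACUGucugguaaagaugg
miR-200b-3p: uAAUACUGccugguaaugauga
miR-200c-3p: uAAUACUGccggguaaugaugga
miR-429-3p: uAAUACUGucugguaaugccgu
miR-200a and miR-141 share AACACUG, and miR-200b, miR-200c and miR-429 share AAUACUG. The sequences of miR-200b, miR-200a and miR-429 lie on chromosome 4 and those of miR-200c and miR-141 on chromosome 6. The count tables listed 5 genes of the family with 0 counts in all 12 libraries, so the level of the microRNAs was not measured here.

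Levels are given as CPM, the counts of a library scaled to its size after TMM adjustment (a trimmed-mean scaling between libraries). Total counts were 16390953 to 23063875 per library. The 28-2 libraries were more spread than the ID8 libraries. The SD of a library's log2 deviations from its group mean was 0.302 to 0.566 in the 6 28-2 libraries and 0.202 to 0.266 in the 6 ID8 libraries, and was highest in 28-2EV replicate 2. Immune cell markers summed to 1.58 to 2.34 CPM in 28-2-200f, 2.34 to 3.84 CPM in 28-2EV, 2.66 to 3.13 CPM in ID8-200f and 2.98 to 4.12 CPM in ID8EV cells, with 5 of 10 markers detected. The epithelial marker Krt19 was at 985 CPM or more in every library. Other epithelial markers were not, as Epcam had 0 counts in 28-2EV cells and Cdh1 had 0.172 to 0.815 CPM there. The mesothelial and ovarian surface list, with 18 of 20 markers detected, differed between the ID8 groups. It summed to 2434 to 3390 CPM in 28-2-200f, against 2439 to 3611 CPM in 28-2EV cells, and to 2493 to 2797 CPM in ID8-200f, against 4349 to 5551 CPM in ID8EV cells. The ID8 groups did not overlap and the 28-2 groups did. In the fit of all libraries, 9 of its 18 tested members were called as lower in ID8, against 4.75% of all genes tested. In 28-2, 4 were called as lower and 2 as higher, against 7.95% and 9.12% of all genes tested. The part of this list in the results was not tested. In cells sequenced in bulk, fewer cells of a type and less RNA per cell cannot be told apart.

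The response differed between the lines for 405 of 13620 genes tested (2.97%) at an adjusted p under 0.05 (edgeR quasi-likelihood test, Benjamini-Hochberg). The difference was positive for 308 genes (2.26%), where 28-2 cells moved up relative to ID8 cells, and negative for 97 genes (0.712%). The median absolute difference of the called genes was 2.41 on the log2 scale, and 346 of them differed by more than 1. The median difference over all genes tested was -0.02. The called genes fell into 5 classes by their calls within each line. There were 227 genes called in 28-2 and not in ID8, 87 called in ID8 and not in 28-2, 45 called in opposite directions, 35 called in both lines in the same direction with different size, and 11 called in neither line. Without 28-2EV replicate 2 the count of 405 became 638, and without 28-2EV replicate 3 it became 748. Leaving out a single ID8 library lowered it to between 213 and 257, with the lowest count without ID8-200f replicate 2.

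The class of a gene depended on how the spread was estimated. In the fit of all 12 libraries, which gives each gene a single spread, 2325 genes (17.1%) were called between 28-2-200f and 28-2EV, 1242 as higher (9.12%) and 1083 as lower (7.95%) in 28-2-200f. Between ID8-200f and ID8EV 1008 genes (7.4%) were called, 361 as higher (2.65%) and 647 as lower (4.75%) in ID8-200f. With each line fitted alone, 564 genes were called in 28-2 and 4775 in ID8, so the order of the lines turned round. Of the 227 genes in the 28-2 only class, 102 were also called in 28-2 and not in ID8 with each line fitted alone, 41 were called in both, 44 in ID8 only and 40 in neither. The 87 genes of the ID8 only class stayed in it, in a fit with fewer 28-2 calls and more ID8 calls, and 67 of the 87 did so in a limma voom fit with a weight per group. Of the 45 genes called in opposite directions, 19 did so with each line fitted alone. That voom fit, which lets the 28-2 libraries carry less weight, called 319 genes for the difference, of which 288 were among the 405, all with the same sign. In that fit 110 genes fell in the 28-2 only class and 113 in the ID8 only class.

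**Figure D1:**
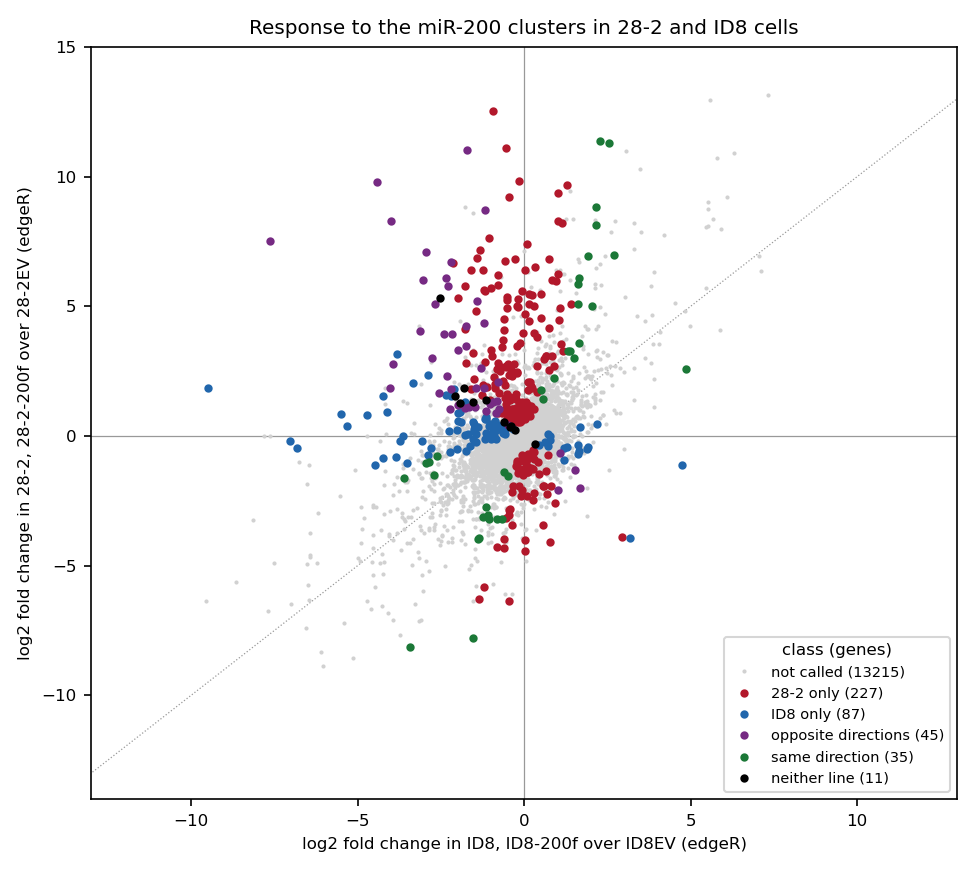
Log2 fold change of 28-2-200f over 28-2EV (y axis) against that of ID8-200f over ID8EV (x axis) for the 13620 genes tested, each point a gene coloured by its class, with a dotted line where the responses are equal. In the 28-2 only class (227 genes), 86 of 166 raised and 45 of 61 lowered genes changed by less than 0.5 in ID8 and lie near the vertical line at 0. In the ID8 only class (87 genes), 40 of 69 lowered and 12 of 18 raised genes changed by less than 0.5 in 28-2 and lie near the horizontal line at 0. Most genes called in opposite directions (45) lie at the upper left.

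Genes that were raised in 28-2 cells without a call in ID8 cells formed the largest group, with 166 genes. Their median log2 fold change was 2.49 in 28-2 and -0.24 in ID8, and 86 of them changed by less than 0.5 in ID8. Tspan7, a tetraspanin of the cell membrane, had 53.9, 49.4 and 76.4 CPM in 28-2-200f cells, against 0.761, 0.745 and 0.599 CPM in 28-2EV cells. In ID8 it had 9.15, 9.2 and 11.1 CPM in ID8-200f cells, against 8.69, 8.86 and 11.5 CPM in ID8EV cells. The 28-2 groups were far apart and the ID8 groups overlapped, with a difference of 6.38 ± 0.31 (SE) and an adjusted p of 1.20e-06 (edgeR). Trps1, a GATA-type transcriptional repressor, had 15.5, 11.4 and 17.6 CPM in 28-2-200f cells, against 0 CPM in all 3 28-2EV libraries. This is at least 259.9-fold higher in 28-2-200f, when 28-2EV is set to the limit that 0 counts allow (3 counts in all 3 libraries together). In ID8 it had 0.919, 0.544 and 0.466 CPM in ID8-200f cells, against 1.24, 0.958 and 0.681 CPM in ID8EV cells, groups that overlap, and the difference had an edgeR adjusted p of 9.95e-05. Slc25a48, a mitochondrial solute carrier, had 24.9, 45.9 and 48.2 CPM in 28-2-200f cells, against 0 CPM in all 3 28-2EV libraries, at least 694-fold higher in 28-2-200f. It stayed under 0.6 CPM in every ID8 library (edgeR adjusted p = 0.000636 for the difference). Crb3, a polarity protein of the apical membrane, had 7.36, 4.54 and 3.29 CPM in 28-2-200f cells, against 0.0544, 0 and 0.0599 CPM in 28-2EV cells, with 0.677, 0.453 and 0.582 CPM in ID8-200f cells, against 0.226, 0.527 and 0.255 CPM in ID8EV cells. The 28-2EV cells held 2 counts of Crb3, which gave a ratio of 134 (95% counting interval 36.9 to 1117), and the difference passed with an edgeR adjusted p of 0.00228. These 4 genes were also called in 28-2 and not in ID8 with each line fitted alone, where Slc25a48 had too few counts to be tested in ID8.

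Among other genes raised in this class, Amot, H2-K1 and Lad1 were called in ID8 too once that line was fitted alone. So were several genes named below with their lists. With each line fitted alone, Cldn3 and Bmpr1b were called in opposite directions and Grhl1 in the same direction. Fzd6, Unc5c, Gbp2, Erbb3, Il18, Sgce, Ptger3 and Bmpr2 were then called in ID8 and not in 28-2, where Sgce and Ptger3 had too few counts to be tested. Slit2 and Bmp2 were then called in neither line. Amot, an angiomotin that binds YAP, had 17.5, 15.7 and 20.7 CPM in 28-2-200f cells, against 3.15, 3.55 and 2.58 CPM in 28-2EV cells, and 10.2, 11.1 and 9.49 CPM in ID8-200f cells, against 15.2, 11.8 and 13.7 CPM in ID8EV cells. Its 28-2 response was 2.53 and its ID8 response -0.40 on the log2 scale, a difference of 2.93 ± 0.26 (SE) with an edgeR adjusted p of 0.000124. H2-K1, a heavy chain of MHC class I, had 166, 188 and 111 CPM in 28-2-200f cells, against 17.9, 33.5 and 19.5 CPM in 28-2EV cells, and 32.7, 27.9 and 27.1 CPM in ID8-200f cells, against 39.7, 44.9 and 42.4 CPM in ID8EV cells. All 3 ID8-200f libraries lay below all 3 ID8EV libraries for both genes, and both were called in opposite directions with each line fitted alone. Reads of H2-K1 can be shared with its near-identical paralogs, so its counts are uncertain. Lad1, an anchoring protein of epithelial basement membranes, had 30.7, 39.3 and 86.8 CPM in 28-2-200f cells, against 0.109, 0 and 0.0599 CPM in 28-2EV cells. The 3 counts in 28-2EV gave a ratio of 910 (95% counting interval 311 to 4414). In ID8 it had 1.84, 1.54 and 1.51 CPM in ID8-200f cells, against 0.621, 0.862 and 0.511 CPM in ID8EV cells, also without overlap, and it was called in both lines in the same direction with each line fitted alone. Pcsk5, a proprotein convertase, had 7.02, 5.49 and 5.72 CPM in 28-2-200f cells, against 0 CPM in all 3 28-2EV libraries, at least 106-fold higher in 28-2-200f, and 39.8, 28 and 37.1 CPM in ID8-200f cells, against 29.8, 34.4 and 52.2 CPM in ID8EV cells. Pcsk5 kept its class with each line fitted alone. The Lad1 and Pcsk5 differences did not pass in the voom fit with group weights, with adjusted p = 0.0695 and 0.0621.

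In 61 genes of the 28-2 only class the 28-2 cells moved down relative to ID8 cells, with a median log2 fold change of -1.47 in 28-2 and 0.06 in ID8. Ephb4, a receptor for ephrin-B2, had 0.114, 0 and 0 CPM in 28-2-200f cells, against 3.59, 3.21 and 4.8 CPM in 28-2EV cells. In ID8 it had 3.68, 5.07 and 3.03 CPM in ID8-200f cells, against 5.64, 5.65 and 4.81 CPM in ID8EV cells. The 28-2 groups did not overlap, the ID8 groups did, and 28-2-200f was 95.8-fold lower by its 2 counts (95% counting interval 26.2 to 796), with an edgeR adjusted p of 0.000822 for the difference. Sulf2, which removes sulfate from heparan sulfate outside the cell, had 72, 65.9 and 38.3 CPM in 28-2-200f cells, against 269.9, 214 and 383 CPM in 28-2EV cells. It had 142, 139 and 129.7 CPM in ID8-200f cells, against 151, 141 and 146 CPM in ID8EV cells. Sulf2 fell in 28-2 without a call in ID8, with a difference of -2.20 ± 0.33 (SE) and an edgeR adjusted p of 0.00315. Loxl3, a lysyl oxidase that crosslinks matrix proteins, had 5.48, 8.02 and 5.48 CPM in 28-2-200f cells, against 21, 27.3 and 24.6 CPM in 28-2EV cells, and 17.6, 17.7 and 18 CPM in ID8-200f cells, against 18.7, 20.2 and 20.8 CPM in ID8EV cells. Dock6, an activator of Rac and Cdc42, had 12.1, 9.28 and 9.67 CPM in 28-2-200f cells, against 28.6, 21.7 and 30.8 CPM in 28-2EV cells, and 27.5, 29.2 and 30.2 CPM in ID8-200f cells, against 27, 27.5 and 27.5 CPM in ID8EV cells. Their differences were -1.78 and -1.47, with edgeR adjusted p = 0.00165 and 0.00276. Tgfb1, the founding ligand of the TGF-beta family, had 30.2, 26.8 and 27.1 CPM in 28-2-200f cells, against 55.9, 53.4 and 60.4 CPM in 28-2EV cells. The ID8 cells had 33.9, 43.5 and 33.5 CPM in ID8-200f cells, against 35.7, 34.3 and 36.2 CPM in ID8EV cells. The 28-2 libraries did not overlap and the ID8 libraries did, and the difference was -1.08 ± 0.17 (SE) with an edgeR adjusted p of 0.00521. Spry1, a feedback inhibitor of receptor tyrosine kinase signalling, had 0.171, 0.126 and 0.669 CPM in 28-2-200f cells, against 7.45, 6.41 and 5.69 CPM in 28-2EV cells, and 1.69, 2.31 and 1.16 CPM in ID8-200f cells, against 3.44, 2.39 and 2.04 CPM in ID8EV cells (difference -3.72, edgeR adjusted p = 0.00861). Ephb4, Sulf2, Loxl3, Dock6, Tgfb1 and Spry1 kept their class with each line fitted alone. Sardh, the sarcosine dehydrogenase of mitochondria, and Prkar2b, a regulatory subunit of protein kinase A, did not. Sardh had 30.6, 27.8 and 21.5 CPM in 28-2-200f cells, against 118, 102 and 81.8 CPM in 28-2EV cells, and 39.7, 40.5 and 38.6 CPM in ID8-200f cells, against 45.9, 48.8 and 54.4 CPM in ID8EV cells, and was called as lower in both lines with each line fitted alone. Prkar2b had 5.36, 5.49 and 2.68 CPM in 28-2-200f cells, against 13.8, 23.5 and 14.6 CPM in 28-2EV cells, and 9.19, 8.7 and 11 CPM in ID8-200f cells, against 5.3, 6.32 and 4.94 CPM in ID8EV cells, and was then called in opposite directions.

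Zeb1 and Zeb2, the best described targets of the family, differed between the lines in the response of their RNA. By the study's RT-qPCR, both fell significantly in 28-2-200f cells and neither changed significantly in ID8-200f cells. The study's western blot showed less Zeb1 protein in the 200f cells of both lines. Protein was not measured here. Zeb2 had 25.7, 19.6 and 16 CPM in 28-2-200f cells, against 51.3, 62.8 and 50.5 CPM in 28-2EV cells. In ID8 it had 34.9, 39 and 38.2 CPM in ID8-200f cells, against 44.1, 41.3 and 43.2 CPM in ID8EV cells. All 28-2-200f libraries lay below all 28-2EV libraries, and the ID8 groups were also apart but close together. The response was -1.42 in 28-2 and -0.20 in ID8, a difference of -1.22 ± 0.22 (SE) with an edgeR adjusted p of 0.0112. Zeb1 had 11.8, 14 and 10.7 CPM in 28-2-200f cells, against 25.4, 20.4 and 23.1 CPM in 28-2EV cells, and 20.7, 19.8 and 23.9 CPM in ID8-200f cells, against 21, 21.1 and 20.2 CPM in ID8EV cells. The ID8 groups overlapped, and the response was -0.92 in 28-2 and 0.05 in ID8, with an edgeR adjusted p of 0.0241 for the difference. The adjusted p for Zeb1 was 0.00881 to 0.0783 with each library left out in turn. It was over 0.05 without ID8EV replicates 1, 2 or 3, ID8-200f replicates 1 or 3, 28-2EV replicate 1 or 28-2-200f replicate 1. Both genes kept the 28-2 only class with each line fitted alone. The longest annotated 3′UTR of each gene held 9 matches to the seeds of the family (GENCODE M21 transcripts; the annotation is of build GRCm38 and the files of GRCm39, so no coordinates are given). Of the 9 in Zeb2, 6 were 8mers, the seed match followed by an A. Because Zeb2 was called for the difference, 1 of its 8mers for each seed is shown with the match in capitals.
Zeb2, 3′UTR, match from base 209 after the stop codon: aaaaattttgtaCAGTGTTAaggcctaaaa
Zeb2, 3′UTR, match from base 458 after the stop codon: actacagtgcatCAGTATTAcgattcctca
The first pairs with AACACUG and the second with AAUACUG. A match is a description of the sequence and no measure of binding.

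The other genes that the study measured by RT-qPCR were mixed. Cdh1, the cadherin of epithelial junctions, had 3.02, 4.8 and 1.58 CPM in 28-2-200f cells, against 0.815, 0.172 and 0.42 CPM in 28-2EV cells. Its ID8 values were 37.4, 35.7 and 34.1 CPM in ID8-200f cells, against 28.4, 28 and 25.8 CPM in ID8EV cells. Every ID8 library stood above every 28-2 library, and the 200f libraries were above the EV libraries in both lines, without overlap. The difference of 2.32 ± 0.55 (SE) had an edgeR adjusted p of 0.0426. It did not pass in the voom fit (adjusted p = 0.149), and it was over 0.05 in 10 of 12 fits with a library left out, at up to 0.114. These included the fits without 28-2EV replicate 2 or 3. With each line fitted alone, Cdh1 was called in ID8 and not in 28-2. Snai1 and Snai2 had differences of -1.28 and -1.66, and Vim of -0.73, with edgeR adjusted p of 0.241, 0.152 and 0.296. Twist2 was near 0 in the 200f cells of both lines. It had 0, 0 and 0.122 CPM in 28-2-200f cells, against 1.47, 0.859 and 1.62 CPM in 28-2EV cells, and 0, 0.0453 and 0 CPM in ID8-200f cells, against 0.959, 0.622 and 0.553 CPM in ID8EV cells. The 200f libraries lay below the EV libraries in both lines, with an edgeR adjusted p of 0.95 for the difference. Twist1 had 0 counts in 28-2 and too few counts in ID8 to be tested.

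**Figure D2:**
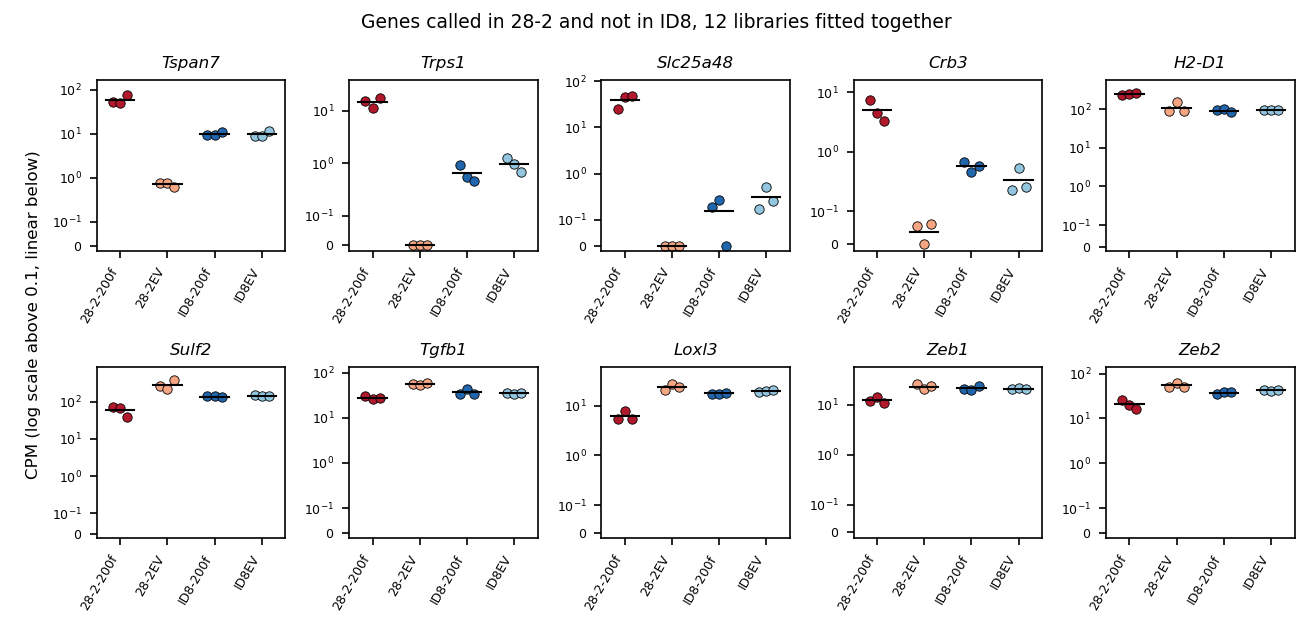
CPM per library (points, 3 per group) and group mean (line) on an axis that is logarithmic above 0.1 and linear below, for 10 genes called in 28-2 and not in ID8 in the fit of all 12 libraries and with each line fitted alone. Tspan7, Trps1, Slc25a48, Crb3 and H2-D1 are higher in 28-2-200f than in 28-2EV, and Sulf2, Tgfb1, Loxl3, Zeb1 and Zeb2 are lower, while the ID8-200f and ID8EV points lie close together.

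Of the 87 genes called in ID8 and not in 28-2, 69 moved down in ID8 relative to 28-2. Their median log2 fold change was 0.25 in 28-2 and -1.75 in ID8. Sdc2, the heparan sulfate proteoglycan syndecan-2, had 46.2, 29.9 and 41.7 CPM in 28-2-200f cells, against 27.8, 20 and 31.7 CPM in 28-2EV cells. The ID8 cells had 21.9, 20.4 and 19.7 CPM in ID8-200f cells, against 78.7, 78.7 and 86.5 CPM in ID8EV cells. The 28-2 groups overlapped, the ID8 groups were apart, and the difference was 2.54 ± 0.26 (SE) with an edgeR adjusted p of 0.000349. Its 3′UTR held a match to each seed. Tfcp2l1, a transcription factor of the grainyhead family, had 71.1, 49.3 and 53.3 CPM in 28-2-200f cells, against 57, 38 and 54.3 CPM in 28-2EV cells, and 33.8, 28.4 and 30.6 CPM in ID8-200f cells, against 128, 117 and 129 CPM in ID8EV cells. It also fell in ID8 without a call in 28-2 (difference 2.23 ± 0.24 (SE), edgeR adjusted p = 0.000473). Podxl, a sialomucin of the apical membrane, had 2.91, 3.72 and 5.6 CPM in 28-2-200f cells, against 5.76, 10.3 and 5.75 CPM in 28-2EV cells, without overlap but short of a call in 28-2 (log2 fold change -0.83, edgeR adjusted p = 0.0831). The gap was wide in ID8, with 5.86, 6.52 and 5.82 CPM in ID8-200f cells, against 89, 99.1 and 156 CPM in ID8EV cells. The Podxl difference was 3.41 ± 0.42 (SE) with an edgeR adjusted p of 0.00105. B4galnt1, which makes the gangliosides GM2 and GD2, had 54.2, 51.4 and 56 CPM in 28-2-200f cells, against 52.7, 44.9 and 38.1 CPM in 28-2EV cells, and 6.97, 7.16 and 5.18 CPM in ID8-200f cells, against 18.3, 16.6 and 19.5 CPM in ID8EV cells. Ptpru, a receptor tyrosine phosphatase, had 0.855, 0.821 and 1.16 CPM in 28-2-200f cells, against 1.14, 0.458 and 0.54 CPM in 28-2EV cells, and 0.0484, 0.181 and 0.175 CPM in ID8-200f cells, against 4.4, 3.88 and 8.39 CPM in ID8EV cells. Acsl6, a ligase of long-chain fatty acids to coenzyme A, had 6.96, 3.28 and 3.35 CPM in 28-2-200f cells, against 5.05, 4.12 and 6.17 CPM in 28-2EV cells. It held 1 count in ID8-200f and 193 in ID8EV, a ratio of 186 (95% counting interval 33 to 7391). B4galnt1, Ptpru and Acsl6 passed for the difference with edgeR adjusted p = 0.00105, 0.00135 and 0.000975, and the 28-2 groups overlapped for all 3.

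The other 18 genes of this class moved up in ID8 relative to 28-2, with median log2 fold changes of -0.42 in 28-2 and 1.46 in ID8. Lrrk2, a large kinase with a GTPase domain, had 3.02, 3.16 and 3.22 CPM in 28-2-200f cells, against 4.29, 4.12 and 3.66 CPM in 28-2EV cells, so the 28-2-200f libraries were all below the 28-2EV libraries. The ID8 cells had 4.26, 5.62 and 5.24 CPM in ID8-200f cells, against 1.64, 1.72 and 1.53 CPM in ID8EV cells. Its difference was -1.99 ± 0.30 (SE) (edgeR adjusted p = 0.00332). Tap2, a subunit of the transporter that loads peptides for MHC class I, had 6.44, 3.47 and 5.35 CPM in 28-2-200f cells, against 10.4, 6.07 and 6.11 CPM in 28-2EV cells, and 16, 12.9 and 16.8 CPM in ID8-200f cells, against 4.4, 4.6 and 5.45 CPM in ID8EV cells. It rose in ID8 while the 28-2 groups overlapped, with a difference of -2.22 ± 0.38 (SE) and an edgeR adjusted p of 0.00778. Dmbt1, a scavenger receptor glycoprotein of mucosal surfaces, had 10.4, 8.96 and 15 CPM in 28-2-200f cells, against 9.95, 7.85 and 9.53 CPM in 28-2EV cells, and 19.5, 21.1 and 19.1 CPM in ID8-200f cells, against 5.59, 6.61 and 6.6 CPM in ID8EV cells. Grem1, a secreted antagonist of bone morphogenetic proteins, had 30.1, 32.1 and 21.5 CPM in 28-2-200f cells, against 31.7, 66.4 and 21.8 CPM in 28-2EV cells, and 102, 131 and 123 CPM in ID8-200f cells, against 40.5, 35 and 20.5 CPM in ID8EV cells. Both rose in ID8, with differences of -1.34 and -2.41 and edgeR adjusted p = 0.0235 and 0.0247. Nr4a1, an orphan nuclear receptor, and Onecut2, a homeodomain factor, had differences of -1.73 and -1.66 with edgeR adjusted p = 0.0224 and 0.0257. The calls of Dmbt1, Grem1, Nr4a1 and Onecut2 were each lost in 5 to 8 of the 12 fits with a library left out, always including those without ID8EV replicate 2, ID8EV replicate 3 and ID8-200f replicate 2, at an adjusted p of up to 0.0802.

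**Figure D3:**
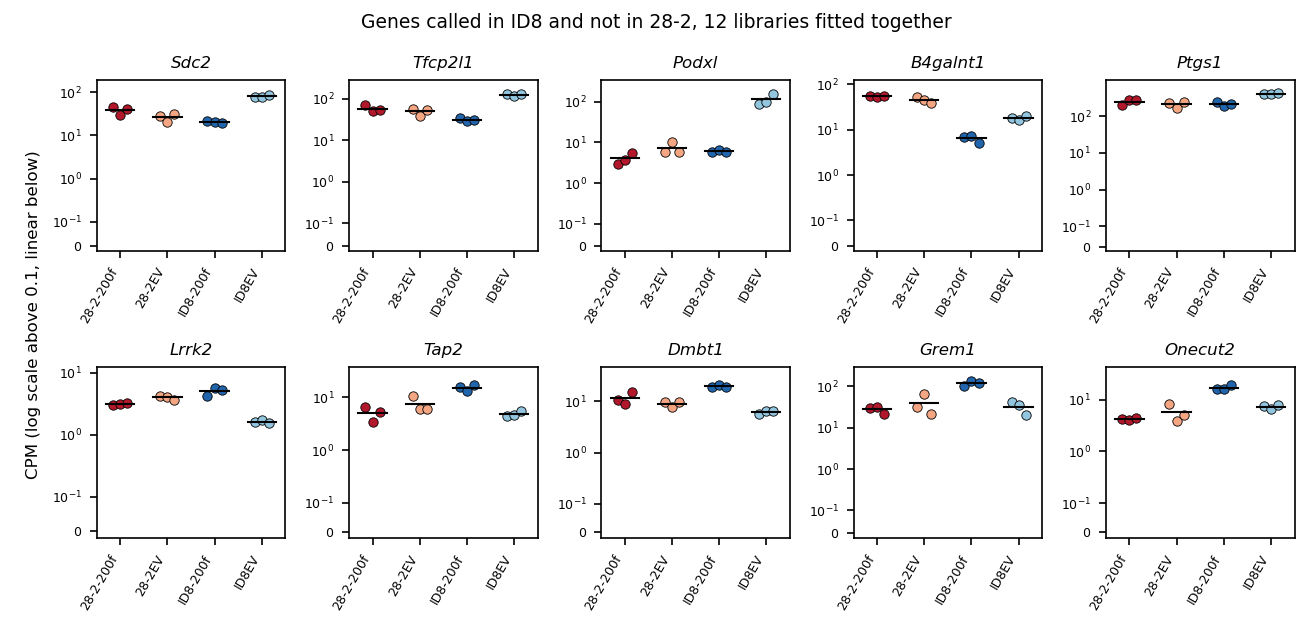
CPM per library (points, 3 per group) and group mean (line) on an axis that is logarithmic above 0.1 and linear below, for 10 genes called in ID8 and not in 28-2. Sdc2, Tfcp2l1, Podxl, B4galnt1 and Ptgs1 are lower in ID8-200f than in ID8EV, Lrrk2, Tap2, Dmbt1, Grem1 and Onecut2 are higher, and the 28-2-200f and 28-2EV points mix or lie close together.

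Responses in opposite directions were called for 45 genes. In 41 of them 28-2 rose and ID8 fell, with median log2 fold changes of 2.78 and -1.98, and in 4 the signs were the other way. All 41 genes had a lower mean in 28-2EV than in ID8EV, against 48.2% of genes tested. Selecting a rise in 28-2 with a fall in ID8 favours such genes, so this is a description. Peg3, an imprinted zinc finger gene, had 3.02, 2.9 and 2.37 CPM in 28-2-200f cells, against 0 CPM in all 3 28-2EV libraries, at least 48.5-fold higher in 28-2-200f. Its ID8 values were 12.3, 10.3 and 10.8 CPM in ID8-200f cells, against 27.7, 21.9 and 25.7 CPM in ID8EV cells. The groups were apart in both lines and moved against each other, with an edgeR adjusted p of 1.73e-05 for the difference. Peg3 carried 2 matches to AACACUG in its 3′UTR, and the 8mer is shown because the gene rose in one line and fell in the other.
Peg3, 3′UTR, match from base 2962 after the stop codon: ttgtgattaaaaCAGTGTTAaatagatttg
Tmem108, a transmembrane protein of neurons, had 9.13, 8.77 and 11.8 CPM in 28-2-200f cells, against 0.598, 0.63 and 0.18 CPM in 28-2EV cells. It had 16.1, 11.6 and 14.8 CPM in ID8-200f cells, against 33.7, 31.2 and 33.8 CPM in ID8EV cells. The difference was 5.58 ± 0.38 (SE) with an edgeR adjusted p of 1.73e-05. Sytl4, a Rab27 effector of secretory granules, had 12.8, 5.18 and 5.54 CPM in 28-2-200f cells, against 0.924, 0.745 and 1.26 CPM in 28-2EV cells, and 1.79, 1.63 and 1.86 CPM in ID8-200f cells, against 9.82, 12.7 and 13.7 CPM in ID8EV cells. It was higher in 28-2-200f and lower in ID8-200f, without overlap in either line (difference 5.78 ± 0.52 (SE), edgeR adjusted p = 0.000142). Gria3, a subunit of AMPA-type glutamate receptors, held 174 counts in 28-2-200f and 1 in 28-2EV, a ratio of 184 (95% counting interval 32.5 to 7290), and had 1.6, 1.27 and 1.11 CPM in ID8-200f cells, against 11.5, 8.52 and 11 CPM in ID8EV cells. Armcx3, a protein of the mitochondrial outer membrane, had 13.2, 9.78 and 18.4 CPM in 28-2-200f cells, against 0 CPM in all 3 28-2EV libraries, at least 241-fold higher in 28-2-200f, and 4.26, 2.36 and 3.49 CPM in ID8-200f cells, against 9.76, 11.4 and 11.9 CPM in ID8EV cells. Gramd1b, a sterol transfer protein, had 15.6, 8.14 and 9.01 CPM in 28-2-200f cells, against 0.272, 0.172 and 0.42 CPM in 28-2EV cells, and 0.484, 0.362 and 0.408 CPM in ID8-200f cells, against 1.13, 1.24 and 1.02 CPM in ID8EV cells. These 3 genes passed for the difference with edgeR adjusted p = 1.73e-05, 2.06e-05 and 6.50e-05. Peg3, Tmem108, Sytl4, Gria3, Armcx3 and Gramd1b kept their class with each line fitted alone and in the voom fit.

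Vcan, a large matrix proteoglycan, had 23.4, 40.9 and 26.8 CPM in 28-2-200f cells, against 2.77, 4.7 and 1.68 CPM in 28-2EV cells, and 4.79, 5.44 and 6.35 CPM in ID8-200f cells, against 30.5, 24.2 and 10.6 CPM in ID8EV cells. Its difference of 5.29 ± 0.59 (SE) passed with an edgeR adjusted p of 0.000523. Its 3′UTR also held an 8mer, shown beside a gene that fell in ID8 and rose in 28-2.
Vcan, 3′UTR, match from base 1074 after the stop codon: ctagtaatttctCAGTGTTAccttttatat
Flt1, a VEGF receptor described as a target of the family, had 26.6, 22.3 and 42 CPM in 28-2-200f cells, against 15.2, 10.6 and 13.3 CPM in 28-2EV cells, and 16, 12.5 and 12.1 CPM in ID8-200f cells, against 27.4, 24.7 and 30.6 CPM in ID8EV cells. Bnc1, a transcription factor of mesothelium and germ cells, had 57, 37 and 57.6 CPM in 28-2-200f cells, against 22.1, 16.4 and 31 CPM in 28-2EV cells, and 21.6, 17.8 and 20.2 CPM in ID8-200f cells, against 54.6, 61 and 73.6 CPM in ID8EV cells. Both were raised in 28-2-200f and lowered in ID8-200f without overlap, with differences of 2.24 and 2.79 and edgeR adjusted p = 0.00276 and 0.000742. With each line fitted alone, Flt1 and Bnc1 were called in ID8 and not in 28-2. The longest annotated 3′UTR of Flt1 held 0 matches to the seeds. Nynrin, which was also called in opposite directions, rested on unequal libraries, with 10.7, 7.13 and 0.0608 CPM in 28-2-200f cells, against 0 CPM in all 3 28-2EV libraries, at least 104.6-fold higher in 28-2-200f. In the voom fit its difference had an adjusted p of 0.16.

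Gdf6, a ligand of the bone morphogenetic protein family, went the other way. It had 17.2, 32.1 and 36.1 CPM in 28-2-200f cells, against 126, 159 and 72.1 CPM in 28-2EV cells. ID8 cells had 393, 399 and 388 CPM in ID8-200f cells, against 213, 204 and 162 CPM in ID8EV cells. The groups were apart in both lines, and the difference was -3.09 ± 0.41 (SE) with an edgeR adjusted p of 0.00161. Dll1, a ligand of Notch receptors, had 1.03, 2.9 and 1.7 CPM in 28-2-200f cells, against 12.5, 4.12 and 5.93 CPM in 28-2EV cells, and 9.82, 9.38 and 11.3 CPM in ID8-200f cells, against 3.22, 3.45 and 2.94 CPM in ID8EV cells. Syne3, the nuclear envelope protein nesprin-3, had 16.2, 16.9 and 14.3 CPM in 28-2-200f cells, against 26.4, 25.2 and 22.3 CPM in 28-2EV cells, and 35.7, 37 and 37 CPM in ID8-200f cells, against 20.1, 15.8 and 16.1 CPM in ID8EV cells. Dll1 and Syne3 were lower in 28-2-200f and higher in ID8-200f, with differences of -3.67 and -1.72 and edgeR adjusted p = 0.00508 and 0.000461. With each line fitted alone, they were called in ID8 and not in 28-2.

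**Figure D4:**
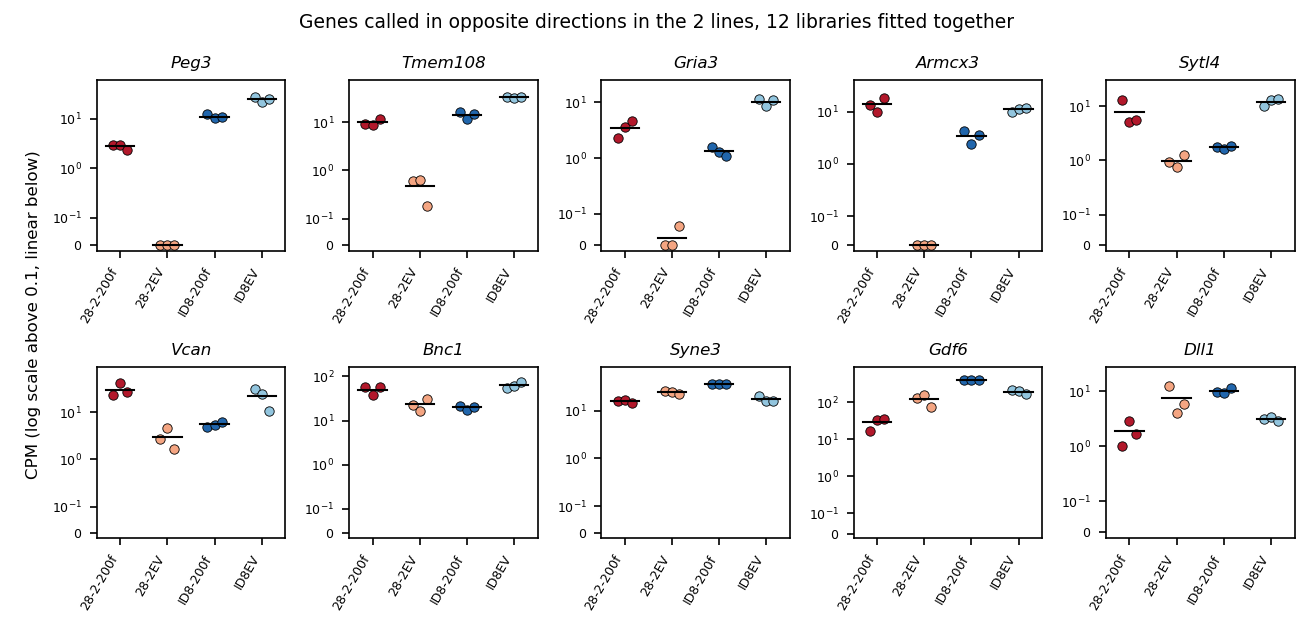
CPM per library (points, 3 per group) and group mean (line) on an axis that is logarithmic above 0.1 and linear below, for 10 genes called in opposite directions. Peg3, Tmem108, Gria3, Armcx3, Sytl4, Vcan and Bnc1 lie higher in 28-2-200f (against 28-2EV) but lower in ID8-200f (against ID8EV), and Syne3, Gdf6 and Dll1 show the reverse, with no overlap of groups within a line in any panel.

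In 35 genes both lines moved in the same direction by different amounts. Tns4, a tensin of focal adhesions, had 362, 357 and 366 CPM in 28-2-200f cells, against 10.7, 8.59 and 12.5 CPM in 28-2EV cells. ID8 cells had 39, 37.4 and 40.7 CPM in ID8-200f cells, against 13.3, 12.3 and 12.7 CPM in ID8EV cells. It rose in both lines, by 5.09 in 28-2 and 1.61 in ID8 on the log2 scale, and the difference of 3.48 ± 0.18 (SE) had an edgeR adjusted p of 1.20e-06. Epcam, an adhesion molecule of epithelial cells, had 15.3, 12.1 and 26.3 CPM in 28-2-200f cells, against 0 CPM in all 3 28-2EV libraries, at least 313-fold higher in 28-2-200f, and 8.81, 6.66 and 8.62 CPM in ID8-200f cells, against 1.47, 1.53 and 1.96 CPM in ID8EV cells (edgeR adjusted p = 0.000495 for the difference). Adgrb2, an adhesion G protein-coupled receptor, had 3.19, 3.98 and 3.77 CPM in 28-2-200f cells, against 66.6, 57.8 and 45.6 CPM in 28-2EV cells, and 58.4, 40.6 and 49.5 CPM in ID8-200f cells, against 135, 122 and 128 CPM in ID8EV cells. Pxdn, a peroxidase of basement membranes, had 1.94, 2.27 and 1.89 CPM in 28-2-200f cells, against 21.3, 22.4 and 12.2 CPM in 28-2EV cells, and 47.6, 48.5 and 44.5 CPM in ID8-200f cells, against 76.4, 72.4 and 74.6 CPM in ID8EV cells. Both fell in both lines and more so in 28-2, with differences of -2.58 and -2.53 and edgeR adjusted p = 0.000169 and 0.000495. Col1a1, the main chain of type I collagen, fell in both lines and more so in ID8, with 2.11, 3.16 and 2.01 CPM in 28-2-200f cells, against 5.65, 8.7 and 7.79 CPM in 28-2EV cells, and 12, 10.6 and 10.5 CPM in ID8-200f cells, against 148, 146 and 107 CPM in ID8EV cells. The Col1a1 difference was 1.99 ± 0.30 (SE) (edgeR adjusted p = 0.00322), and it did not pass in the voom fit (adjusted p = 0.0653).

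Gene lists were counted for members whose response differed, beside 2.26% higher and 0.712% lower over all genes tested and a median difference of -0.02. Other fits called other totals over all genes, to be read beside their list counts. DESeq2 called 599 higher and 321 lower of 13620, and voom 237 and 82. Without 28-2EV replicate 2 it was 394 and 244 of 13974, and without 28-2EV replicate 3 it was 505 and 243 of 13969. Without a single ID8 library it was 163 to 199 higher and 45 to 58 lower. Of 26 epithelial junction and surface genes tested, 6 were higher in 28-2 relative to ID8 and 0 were lower, with a median difference of 0.75. Epcam, Cldn3, Crb3, Patj, Pkp1 and Cdh1 were the 6. Cldn3, a tight junction claudin, had 10.2, 16.3 and 14.2 CPM in 28-2-200f cells, against 3.21, 4.3 and 2.88 CPM in 28-2EV cells, and 7.45, 6.75 and 6.17 CPM in ID8-200f cells, against 9.7, 9.77 and 11.1 CPM in ID8EV cells, a difference of 2.55 ± 0.31 (SE) with an edgeR adjusted p of 0.000842. Counts for this list were 8 higher with DESeq2, 3 with voom and 3 to 9 with each library left out, the 9 without 28-2EV replicate 3 and the 3 when an ID8-200f library was left out. At an unadjusted p under 0.05, 14 members were higher and 0 lower, and 0 were lower with DESeq2 or voom. Over all genes tested, 2169 of 13620 passed at that unadjusted p in either direction. Of 8 epithelial transcription and splicing factors, 2 were higher and 0 lower (median 1.36), against 4 and 0 with DESeq2, 2 and 0 with voom, and 5 and 1 at an unadjusted p under 0.05. Grhl1, a grainyhead factor, had 10.3, 13.1 and 13 CPM in 28-2-200f cells, against 1.41, 1.66 and 1.26 CPM in 28-2EV cells, and 2.76, 2.27 and 3.9 CPM in ID8-200f cells, against 1.81, 1.44 and 1.7 CPM in ID8EV cells. Ehf, an epithelial ETS factor, had 4.79, 4.42 and 2.68 CPM in 28-2-200f cells, against 0 CPM in all 3 28-2EV libraries, at least 69.4-fold higher in 28-2-200f, and was near 0 in ID8. The Ehf call (edgeR adjusted p = 0.0356) was lost in 7 of 12 fits with a library left out, those without ID8EV replicate 2 or 3, ID8-200f replicate 1 or 3, 28-2EV replicate 1 or 28-2-200f replicate 1 or 2, which left 1 higher member. Of 9 keratins, Krt19 alone was called, with 2143, 2254 and 2607 CPM in 28-2-200f cells, against 1139, 1012 and 985 CPM in 28-2EV cells, and 1941, 1719 and 1711 CPM in ID8-200f cells, against 1486, 1562 and 1628 CPM in ID8EV cells (difference 0.96, edgeR adjusted p = 0.00869). The 10 EMT transcription factors tested had 2 members called, both lower, Zeb1 and Zeb2. Of 30 described targets of the family, 1 was higher (Flt1) and 3 lower (Zeb1, Zeb2 and Fhod1), with a median difference of -0.12. The 3 became 1 without ID8EV replicate 2 or 3 or ID8-200f replicate 1.

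Among 33 glycosyltransferases and mucins, 6 were higher and 0 lower, with a median difference of 0.29. The 6 were St8sia4, St8sia1, Fut2, B3gnt7, B4galnt1 and Gcnt1. With voom it was also 6, with DESeq2 8 higher and 1 lower, at an unadjusted p under 0.05 10 higher and 3 lower, and 5 to 7 higher with each library left out. St8sia4, which adds polysialic acid, had 13.3, 12.6 and 12.9 CPM in 28-2-200f cells, against 0.326, 0.515 and 0 CPM in 28-2EV cells, and 5.57, 3.99 and 5.94 CPM in ID8-200f cells, against 4.4, 3.69 and 2.85 CPM in ID8EV cells. Fut2, a fucosyltransferase, had 45.4, 46.3 and 44.4 CPM in 28-2-200f cells, against 1.14, 0 and 1.02 CPM in 28-2EV cells, and 4.84, 1.49 and 3.79 CPM in ID8-200f cells, against 1.47, 1.72 and 1.96 CPM in ID8EV cells. St8sia1, which makes the ganglioside GD3, had 11, 12.4 and 5.48 CPM in 28-2-200f cells, against 3.53, 1.83 and 2.52 CPM in 28-2EV cells, and 8.61, 6.61 and 9.32 CPM in ID8-200f cells, against 17.5, 17 and 22.1 CPM in ID8EV cells. The 3 differences were 4.98, 5.0 and 3.07, with edgeR adjusted p = 0.00161, 0.00599 and 0.00258. Of 20 genes of MHC class I presentation, 4 were higher (H2-Q4, H2-K1, H2-D1 and Nlrc5) and 1 lower (Tap2), with a median difference of 0.48. H2-Q4, H2-K1 and H2-D1 are close paralogs that can share reads, so they are uncertain as separate members. The count of higher members was 6 without 28-2EV replicate 2. H2-D1 had 239, 245 and 259.6 CPM in 28-2-200f cells, against 88.4, 152 and 90.7 CPM in 28-2EV cells, and 95.3, 99.7 and 82.5 CPM in ID8-200f cells, against 97.4, 97.4 and 95.6 CPM in ID8EV cells. Nlrc5, the transactivator of MHC class I genes, had 10.2, 11.7 and 6.21 CPM in 28-2-200f cells, against 0.707, 1.37 and 0.42 CPM in 28-2EV cells, and 0.145, 0.498 and 0.757 CPM in ID8-200f cells, against 0.339, 0.91 and 0.341 CPM in ID8EV cells. The calls of H2-D1 and Nlrc5 had edgeR adjusted p = 0.0224 and 0.0354 and were lost in 5 and 8 of the fits with a library left out, including those without ID8EV replicate 1, 2 or 3, which left 2 members called higher. Nlrc5 did not pass in the voom fit (adjusted p = 0.0725). Of 44 interferon-stimulated genes, 1 was higher (Gbp2) and 0 lower, against 3 and 1 at an unadjusted p under 0.05, 3 and 0 with DESeq2, 3 and 0 with voom, and 10 and 0 without 28-2EV replicate 2.

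The TGF-beta, activin and BMP list had members on both sides, 3 higher and 4 lower of 41 tested. Bmpr1b, a BMP receptor, had 3.54, 4.67 and 14.7 CPM in 28-2-200f cells, against 0.815, 0.859 and 0.779 CPM in 28-2EV cells, and 3.39, 1.59 and 2.62 CPM in ID8-200f cells, against 7.67, 7.47 and 6.94 CPM in ID8EV cells (difference 4.75, edgeR adjusted p = 0.00299). Bmpr2 and Bmp2 were the other 2 higher members, with differences of 0.79 and 1.26, and both calls were lost in 10 of 12 fits with a library left out, which left 1 higher member, and 5 were higher without 28-2EV replicate 3. Gdf6, Tgfb1, Grem1 and Fstl1 were lower. The calls of Grem1 and Fstl1 were lost in 5 and 6 of the fits, and 2 lower members were left without ID8EV replicate 2 or 3 or ID8-200f replicate 2 or 3. Fstl1, a secreted follistatin-like protein, had 21.8, 19.9 and 10.6 CPM in 28-2-200f cells, against 135, 102 and 219 CPM in 28-2EV cells, and 77.8, 72.4 and 74.1 CPM in ID8-200f cells, against 171, 174 and 184 CPM in ID8EV cells. Of 35 Wnt pathway genes, Fzd6 was higher and Wnt10b, Tcf7 and Lgr6 were lower. The calls of Tcf7 and Lgr6 were lost in 9 of 12 fits each and in the voom fit (adjusted p = 0.0774 and 0.116), which left 1 lower member, and the lower members were 0 without ID8EV replicate 3 and 5 without 28-2EV replicate 2. Of 35 matrix glycoproteins, Vcan and Lama3 were higher and Loxl3 was lower, and the balance turned with the setting. It was 2 higher and 6 lower with DESeq2, 2 and 3 with voom, and 5 and 7 at an unadjusted p under 0.05, and 4 were lower without 28-2-200f replicate 3. Lama3, a chain of epithelial laminin, had 43.9, 33.1 and 68 CPM in 28-2-200f cells, against 2.66, 0 and 1.14 CPM in 28-2EV cells, and 4.65, 1.86 and 3.9 CPM in ID8-200f cells, against 5.25, 4.41 and 5.15 CPM in ID8EV cells (difference 5.75, edgeR adjusted p = 0.00558). Of 21 collagen chains, Col1a1 and Col11a1 were higher and Col16a1 was lower, with 2 and 3 by DESeq2 and 1 and 1 by voom. Col11a1 held 11 counts in 28-2-200f and 3 in 28-2EV, without a call, and 0 in ID8-200f, and its call for the difference was lost without 28-2-200f replicate 2. Of 33 matrix proteases and inhibitors, Mmp15 was higher and F2rl1 lower, and neither passed in the voom fit (adjusted p = 0.0823 and 0.0803), while DESeq2 called 3 higher and 1 lower. Without 28-2EV replicate 3 there were 3 higher and without 28-2EV replicate 2 there were 2 lower members. Of 25 Eph, ephrin, Slit and FLRT genes, Slit2 and Unc5c were higher and Ephb4 was lower. The calls of Slit2 and Unc5c were lost in 4 and 6 of 12 fits with a library left out, and 0 higher members were left when ID8-200f replicate 2 or 3 or ID8EV replicate 2 was taken out.

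Erbb3 and Erbb4 were higher among 13 EGF receptor ligands and receptors, and Flt1 and Fgfr2 among 22 other receptor tyrosine kinases, with 0 lower in both lists. The calls of Erbb3 and Fgfr2 (edgeR adjusted p = 0.0407 and 0.0426) were each lost in 9 of 12 fits with a library left out, including each fit that left out an ID8 library, and with library sizes alone. This left 1 higher member in each list, and without 28-2EV replicate 3 they had 3 and 5. At an unadjusted p under 0.05, 1 and 0 members of these lists were lower, and with DESeq2 or voom 0 in both. Igfbp3 and Igfbp4, which bind insulin-like growth factors, were higher of 11 genes of the IGF axis. Igfbp4 fell less in 28-2, with 325, 348 and 208 CPM in 28-2-200f cells, against 1059, 664 and 794 CPM in 28-2EV cells, and 55.3, 50.1 and 52.4 CPM in ID8-200f cells, against 324, 347 and 367 CPM in ID8EV cells. Whichever ID8 library was left out, 1 member of the IGF list stayed called. Ptgs1 and Ptger3 were higher of 15 prostaglandin genes, with 1 by voom and 0 without ID8-200f replicate 2, and Peg3 and Sgce were higher of 13 imprinted genes. Podxl and Bnc1 were higher of 18 mesothelial and ovarian surface markers, with 5 higher without 28-2EV replicate 3, and Col1a1 of 6 fibroblast and smooth muscle markers. That fibroblast list summed to 230.5 to 393 CPM in 28-2-200f, 79.8 to 473 CPM in 28-2EV, 120.3 to 173 CPM in ID8-200f and 459.7 to 511 CPM in ID8EV cells, with 11 of 13 markers detected. Its part in the matrix results was not tested. A single member was called as higher among 29 p53 targets (Pmaip1), and as lower among 26 MAPK feedback genes (Spry1), 14 Notch genes (Dll1), 20 Hox genes (Hoxa5) and 79 cytosolic ribosomal proteins (Rps29). The calls of Pmaip1, Hoxa5 and Rps29 were lost in 8, 8 and 9 of 12 fits with a library left out, in each case including each fit that left out an ID8EV library, and Hoxa5 also in the voom fit. Without 28-2EV replicate 2 there were 6 lower ribosomal proteins and 3 lower Notch genes, and without 28-2EV replicate 3 there were 3 higher p53 targets. Chemokines and cytokines had Il18 higher and Cx3cl1 lower of 21, and ATF4 and unfolded protein response genes Dnajb9 higher and Vldlr lower of 36. The edgeR adjusted p of Il18, Cx3cl1, Dnajb9 and Vldlr was 0.0401, 0.0336, 0.044 and 0.0317. Each call was lost in 8 or 9 of 12 fits with a library left out, including each fit that left out an ID8 library, and Il18 and Vldlr did not pass in the voom fit (adjusted p = 0.0658 and 0.0621). Without 28-2EV replicate 3, 7 ATF4 and unfolded protein response genes were lower, in a fit that called 243 of 13969 genes as lower.

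No member was called by edgeR in 12 lists. Over all genes tested, 2169 of 13620 had an unadjusted edgeR p under 0.05 in either direction. At an unadjusted p under 0.05, the members higher and lower were 0 and 0 of 54 DNA replication and mitosis genes, 3 and 0 of 35 cholesterol and fatty acid synthesis genes, 1 and 5 of 36 glycolysis and hypoxia genes, 3 and 8 of 42 glutathione transferases and NRF2 targets, and 3 and 5 of 36 NF-kB and TNF response genes. They were 1 and 2 of 14 integrins, 3 and 3 of 25 semaphorins, plexins and neuropilins, 4 and 1 of 14 complement genes, 1 and 1 of 10 ABC transporters, and 0 of 10 mitochondrially encoded genes and of the single immune and single endothelial marker tested. DESeq2 called 0 to 3 members of each of these lists in either direction and voom 0 or 1. The proliferation list had a median difference of -0.25, with medians of 0.00 in 28-2 and 0.28 in ID8.

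**Figure D5:**
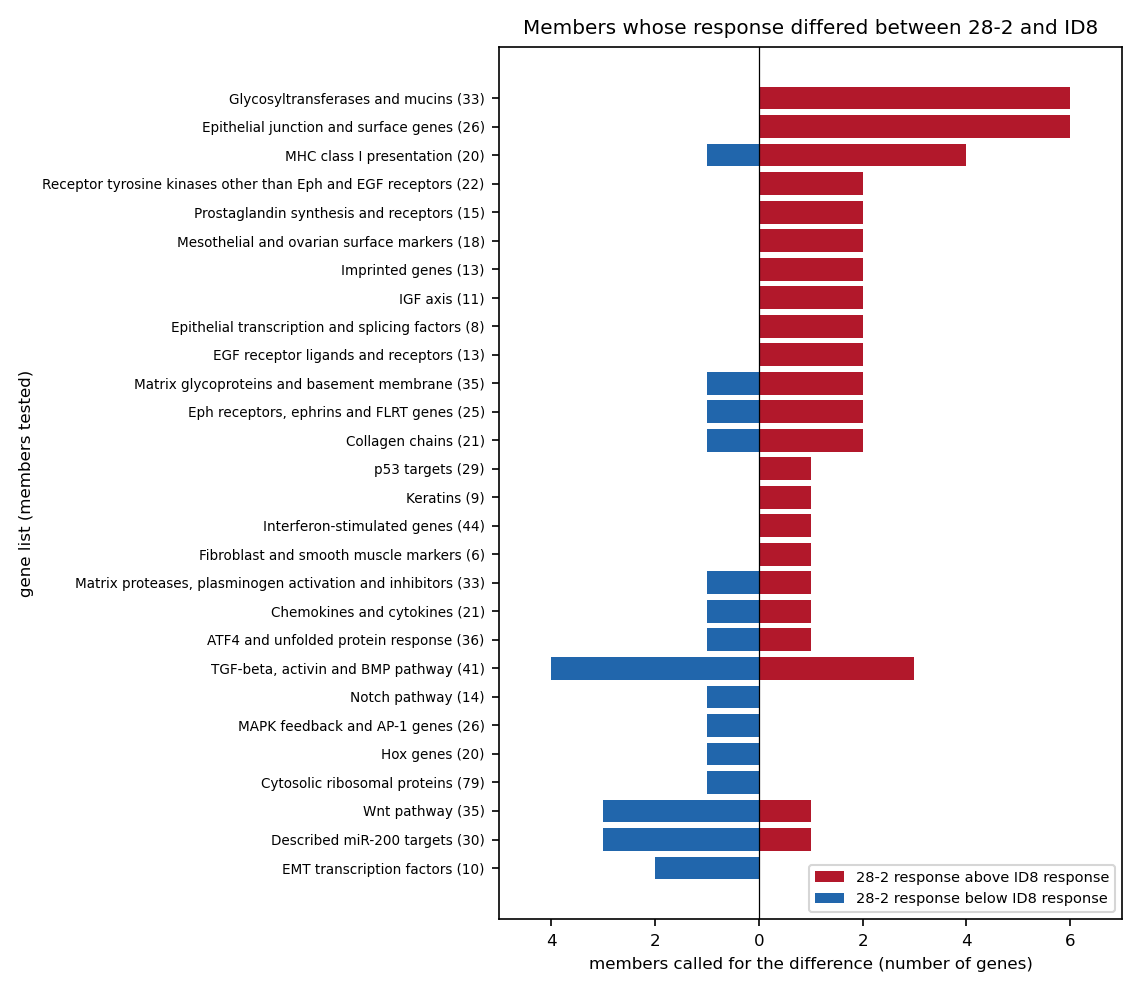
Number of members called for the difference in each of 28 gene lists with at least 1 called member, with members higher in 28-2 relative to ID8 to the right and members lower to the left, and the number tested in parentheses. Glycosyltransferases and mucins and epithelial junction genes have 6 higher and 0 lower members, and the TGF-beta, activin and BMP list has 3 higher and 4 lower.

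Many of the differing genes were nearly silent in 28-2EV cells. The 28-2EV mean was under 0.5 CPM for 98 of the 405 called genes (24.2%), against 847 of 13620 tested (6.22%), and 30 called genes had 0 counts in all 28-2EV libraries. Such genes were tested only because another group held counts. Of the 166 genes raised in the 28-2 only class, 54 had a 28-2EV mean under 0.5 CPM and 157 (94.6%) had a lower mean in 28-2EV than in ID8EV, against 48.2% of genes tested. The 28-2EV libraries enter both the level and the difference, so this is a description. Of the 61 genes lowered in that class, 14 had a lower mean in 28-2EV than in ID8EV. In the ID8 only class, 2 of 18 genes raised in ID8 had an ID8EV mean under 0.5 CPM. Of the 69 genes lowered in ID8 it was 0, which follows from the selection, as a gene called as lower needs counts in ID8EV. The ID8-200f mean was under 0.5 CPM for 15 of these 69 genes. The 28-2-200f mean was under 0.5 CPM for 10 of the 61 genes lowered in the 28-2 only class.

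The called genes were spread over the chromosomes, with higher shares on chromosomes X and 1 (gene positions from GENCODE M21). On chromosome X, 25 of 413 genes tested were called (6.05%), 24 of them higher, among them Tspan7, Gria3, Armcx3, Amot and Sytl4. On chromosome 1, 44 of 789 genes were called (5.58%), 41 of them higher, among them Lad1, Tfcp2l1, Erbb4, St8sia4 and Bmpr2. The median difference over all genes tested on chromosome 1 was 0.28, with 72.5% of genes above 0, from medians of 0.22 in 28-2 and -0.06 in ID8. Chromosome 14 had a median difference of 0.25, from medians of 0.06 in 28-2 and -0.23 in ID8, and 4.66% of its genes were called. On chromosome 15 the median difference was -0.19, from -0.24 in 28-2 and -0.02 in ID8. Without 28-2EV replicate 2 the medians of chromosomes 1 and 14 were 0.30 and 0.28, and the called share was 7.52% on chromosome 1 and 6.62% on chromosome X, against 4.57% of all genes. A gene's call and the shift of its chromosome cannot be told apart here for genes with small differences, such as Bmpr2. Outside chromosomes 1 and X, 336 genes were called.

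Matches to the seeds were counted in the longest annotated 3′UTR of 11869 genes tested. A match to either seed, CAGTGTT or CAGTATT in the transcript, was found in 32.1% of them. The share was 31.6% of 57 genes lowered and 35.4% of 161 genes raised in the 28-2 only class. It was 43.9% of 66 genes lowered in the ID8 only class, whose median 3′UTR length was 2012 bases, against 1370 over all genes. It was 37.5% of 40 genes that rose in 28-2 and fell in ID8. Genes with 3 or more matches had a median difference of 0.06, with medians of 0.07 in 28-2 and -0.02 in ID8, and genes without a match had a median difference of -0.03, with medians of 0.02 and 0.04. Among the 1047 genes with an 8mer, 9.93% were lower in 28-2 and 5.35% in ID8, against 7.94% and 5.15% of all genes with a 3′UTR. The share lower in 28-2 was 7.18% of genes with 2 or more matches and 7.45% of genes with 3 or more, both under that of all genes. An 8mer was held by 6.06% of the 66 genes lowered in the ID8 only class, against 8.82% of all genes. Longer 3′UTRs hold more matches by their length, and no test was made.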

How the data were processed

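Total RNA behind the 12 libraries was sequenced as paired 150-base reads. The authors ran the Genialis RNA-seq pipeline, in which BBDuk trims, STAR aligns and featureCounts gives the counts per gene, and the submitters' notes name build GRCm39. Which annotation and strandedness were used for counting, and the aligner's version, is not given in the sources used here. The deposited counts are whole reads per gene and were used for all main results, the deposited TPM values were used for an alternative, and the deposited CPM values were not used. Genes were filtered with filterByExpr (minimum count 10, minimum total 15), scaled by TMM and fitted as 4 group means with edgeR 4.0.16 in R 4.3.3. The SE of a difference was taken as its absolute value divided by the square root of the quasi-likelihood F statistic. The members and the 40 gene lists were chosen with earlier results of these data known. Named genes are the 6 with the smallest p per class and direction, the 5 largest differences each way (mean of at least 5 CPM), up to 4 called members of a list per direction, and genes measured by RT-qPCR. Genes B3gnt7, Gcnt1 and Pkp1 were named after their values were seen. Intervals and floors cover counting error only. Chromosomes and 3′UTRs came from GENCODE M21 by gene identifier (52029 of 57010 matched). Alternatives used DESeq2 1.42.0, limma 3.58.1, other scalings and filters, a replicate block and leaving out each library. The test of the difference was run on simulated counts, with planted differences smaller than the largest here and only in genes expressed in both lines. Planted differences in nearly silent groups and the classes were not covered.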

Additional observations from a re-analysis of the deposited data

Results flagged for a closer look

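The response itself differed between 28-2 and ID8 in the interaction test for 405 genes, 45 of them called in opposite directions, and these genes stand here for that difference. Among the genes named from that class, the difference in log2 fold change (28-2 minus ID8, edgeR) was 9.87 for Peg3, 5.58 for Tmem108, 10.05 for Gria3, 12.72 for Armcx3, 6.64 for Gramd1b and 5.78 for Sytl4, and -1.72 for Syne3, -3.09 for Gdf6 and -3.67 for Dll1. The values for Peg3, Gria3 and Armcx3 depend on the prior count of the fit, because the 28-2EV libraries held 0 or 1 counts of these genes.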

How the results depend on the processing

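The counts of called genes and their classes changed with the processing, and the values below are given as total, 28-2 only, ID8 only and opposite. Against 405, 227, 87 and 45, DESeq2 called 920, 525, 181 and 82, no filter on low counts 906, 433, 218 and 95, and the study's cut-off (FDR under 0.01 with an absolute log2 value over 1) 168, 110, 30 and 14. A test against a difference of 1 called 142. With voom and group weights the 28-2 only class held 110 genes, with limma on log2(TPM + 1) the ID8 only class held 140, and with each line fitted alone the classes held 102 and 170. RLE size factors, library sizes alone and a filter of 1 CPM in 3 libraries stayed within 1.5 times. Leaving out each library in turn gave 213 to 748 genes in total, 143 to 405 in the 28-2 only class, 30 to 189 in the ID8 only class and 20 to 79 in opposite directions. DESeq2 without 28-2EV replicate 2, chosen after seeing the data, called 1096, 591, 199 and 114. The share of higher calls was 76.0%, against 65.1% with DESeq2, 66.2% without a filter and 61.8% without 28-2EV replicate 2, and the cause was not tested. With the replicate number as a block within each line, 244, 144, 52 and 28 genes were called. The deviations of samples with the same number had correlations of 0.21, 0.11 and -0.30 in 28-2 and -0.10, 0.05 and -0.03 in ID8. Samples with unlike numbers had -0.47 to 0.44 in 28-2 and -0.09 to 0.13 in ID8. With 3 libraries per group, these values cannot show whether samples were paired. Of 95 named genes called, 61 kept the call without every single library, 95 with DESeq2, 78 with voom and 68 with the block, and 0 values changed sign. Of 1120 list counts under alternatives, 877 were equal, 152 lower and 91 higher. A total of 3 libraries per group limits every count, and the miR-200 clusters cannot be told apart from drug doses. The part of an unequal gain of the microRNAs between the lines was not tested.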
